A study of Mus musculus with 3 samples.

Results

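The 50 genes described here encode receptors and enzymes of glutamate and GABA signalling, measured in SB28, a mouse glioblastoma cell line on the C57BL/6 background that was derived from a transposon-induced brain tumour. The genes were chosen by symbol from the 24421 gene lines of the count tables: 26 glutamate receptor subunits, 19 GABA-A subunits, 2 GABA-B subunits, and the GABA enzymes Gad1, Gad2 and Abat. RNA-seq was made from 3 replicate libraries of 1 group, each built from 1 µg of total RNA. There was no control group, no treatment and no normal brain sample, so genes were compared with each other and libraries with each other. The labels do not say whether the replicates were separate cultures, and give no passage, clone or culture condition. P-values here thus describe the spread among these libraries alone, and that spread may be technical.

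Of the 50 genes, 8 (16.0%) were detected, meaning at 1 CPM or more (counts scaled to a library total of 1000000 assigned counts) in all 3 libraries, against 46.6% of all genes. Another 2 lay above 1 CPM in some libraries only, 23 had some counts but stayed below 1 CPM in every library, and 17 (34.0%) had 0 counts in all libraries, against 31.9% of all genes. The 8 detected genes were the kainate receptor subunit Grik5, the GABA-B subunit Gabbr1, the GABA-synthesising enzyme Gad2, the AMPA receptor subunits Gria3 and Gria1, the GABA-degrading enzyme Abat, the GABA-A subunit Gabre and the NMDA receptor subunit Grin2d. The first 5 held 9108 of the 10369 counts of the whole group (87.8%, and 87.2% to 88.7% in single libraries). The median over the 50 genes was 0.0417 CPM, against 0.541 CPM over all genes in the files. In bulk RNA, fewer cells that transcribe a gene and less RNA per cell cannot be told apart.

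Glutamate is the main excitatory transmitter of the brain and GABA the main inhibitory one. AMPA, kainate and NMDA receptors are glutamate-gated cation channels built from several subunits, while the metabotropic glutamate receptors and the GABA-B receptor act through G proteins. GABA-A receptors are GABA-gated chloride channels. Most of these channels need particular combinations of subunits to work. In gliomas, glutamate release and glutamate receptors have been studied for their part in invasion and in contacts between tumour cells and neurons.

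The libraries held 36019009, 28990128 and 32632858 counts assigned to genes in replicates 1, 2 and 3, and values given in threes follow this order. A gene with 0 counts could have stood at up to 0.0833, 0.103 and 0.0919 CPM in these libraries, the level of 3 counts, which covers counting error only. Replicates 1 and 2 lay close together: 256 of 12746 genes (2.01%) differed between them beyond counting noise, against 8191 of 12802 (64.0%) between replicates 1 and 3 and 7963 of 12685 (62.8%) between replicates 2 and 3. The SDs below therefore carry, for many genes, the distance of replicate 3 from the other libraries. Whether replicates 1 and 2 are independent was not tested, and n = 3 and the tests below count libraries. In the check of the labelled tissue, markers of each brain cell type were mixed. Among astrocyte markers Gfap had 0 counts, while Gja1 stood at 511, 512 and 414 CPM and Sox9 at a mean of 27.3 CPM. Among oligodendrocyte progenitor markers Olig2 had 0 counts, while Vcan, Pdgfra and Cspg4 had means of 313, 52.4 and 46.9 CPM. Among neuron markers Rbfox3 had 0 counts, while Tubb3 and Syn1 had means of 19.7 and 8.49 CPM.

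**Figure D1:**
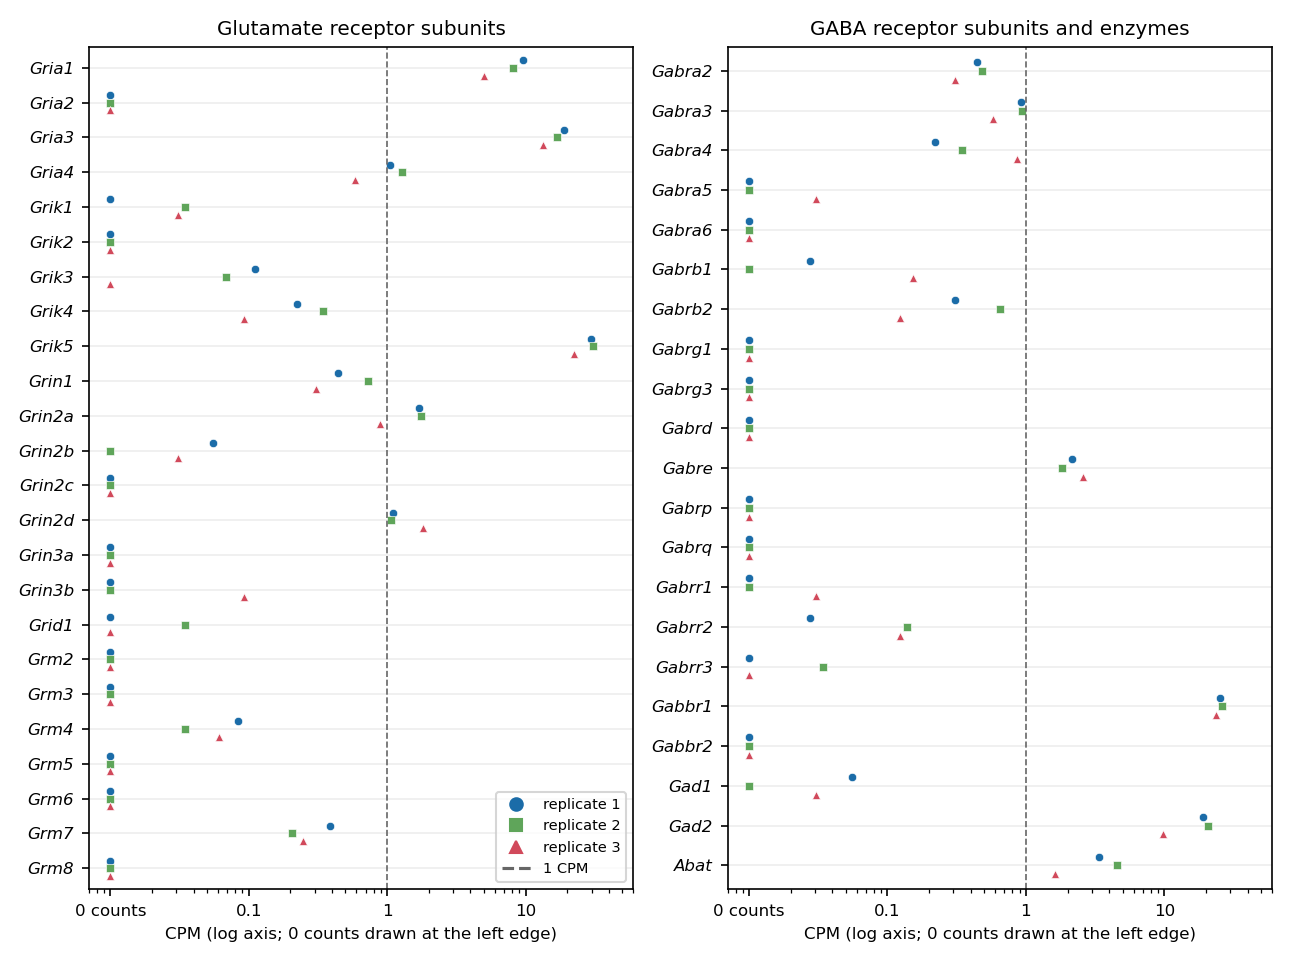
Level of 45 of the 50 genes in each library, in CPM on a log axis, with 0 counts drawn at the left edge and a dashed line at 1 CPM. Points are single libraries (blue circle, replicate 1; green square, replicate 2; red triangle, replicate 3); 8 genes lie right of the line in all libraries and 16 lie at the left edge in all.

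AMPA receptor transcripts came from Gria3 and Gria1, with no counts from Gria2. AMPA receptors carry most fast excitatory transmission, and it is the Gria2 subunit, after RNA editing, that makes them impermeable to calcium. Gria3 stood at 19.0, 16.9 and 13.4 CPM (mean 16.4 ± 2.87 SD, n = 3) and Gria1 at 9.63, 8.11 and 5.03 CPM (7.59 ± 2.35 SD, n = 3). For each of them replicate 1 was highest and replicate 3 lowest. Gria4 lay around the detection limit, at 1.05, 1.28 and 0.582 CPM. Gria2 had 0 counts in every library.

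Levels of different genes are compared per kilobase (kb) of exon length. On that scale Gria3 made up 52.3%, 52.6% and 59.5% of the AMPA sum, Gria1 43.2%, 41.2% and 36.5%, and Gria4 the remaining 4.53%, 6.22% and 4.05%. Gria3 led in every library, and its share moved from a mean of 54.8% to 66.2% without length correction and to 67.6% with the longest transcript. Against a limit of 3 counts over the 3 libraries together, Gria3 was at least 847-fold higher per kb than Gria2. This limit was 486-fold without replicate 1 and 537-fold without length correction. Gria3 lies on chromosome X at 41400854 to 41678601, Gria1 on chromosome 11 at 57011387 to 57330244 and Gria2 on chromosome 3 at 80681450 to 80802835 (GRCm38).

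Among the kainate receptor subunits, which form channels in neurons before and after the synapse, Grik5 stood almost alone and had the highest mean level of all 50 genes per kb, 5.36 CPM per kb. It is known as a subunit that does not form a working channel by itself and needs a partner encoded by Grik1, Grik2 or Grik3. Grik5 reached 29.8, 30.9 and 22.4 CPM (27.7 ± 4.62 SD, n = 3), at the 42.5th percentile among detected genes. The possible partners held 2 counts (Grik1), 0 counts (Grik2) and 6 counts (Grik3) over all libraries, and Grik4, the other subunit of the Grik5 type, held 21. Grik5 thus made up 99.1%, 98.8% and 99.5% of the kainate sum per kb. Per kb, Grik5 was at least 2308-fold higher than Grik2 against the same limit of 3 counts. The limit was 1389-fold without replicate 1 and 900.3-fold without length correction, a setting that ignores the longer exons of Grik2.

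The promoter windows of this pair, 250 bases before to 50 bases after the RefSeq start (assembly GRCm38.p6), are shown because the paralogues stood at opposite ends of the range of levels. The Grik5 window is chr7:25072320-25072619 on the minus strand and the Grik2 window chr10:49788705-49789004 on the minus strand. Capitals mark each CpG dinucleotide, the site of DNA methylation.
Grik5: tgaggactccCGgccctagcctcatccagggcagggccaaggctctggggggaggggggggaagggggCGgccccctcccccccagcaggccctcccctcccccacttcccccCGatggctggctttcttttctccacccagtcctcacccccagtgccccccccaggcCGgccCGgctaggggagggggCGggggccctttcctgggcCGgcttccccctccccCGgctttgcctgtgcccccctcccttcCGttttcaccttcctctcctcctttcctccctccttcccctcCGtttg
Grik2: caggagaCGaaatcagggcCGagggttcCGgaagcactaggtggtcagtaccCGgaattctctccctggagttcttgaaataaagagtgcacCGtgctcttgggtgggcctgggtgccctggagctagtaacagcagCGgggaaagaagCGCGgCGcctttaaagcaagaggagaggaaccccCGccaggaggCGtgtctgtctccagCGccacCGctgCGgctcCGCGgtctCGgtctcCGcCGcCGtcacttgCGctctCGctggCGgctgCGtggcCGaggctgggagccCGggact
The Grik5 window held 10 CpGs at 72.0% G and C and the Grik2 window held 26 CpGs at 64.7% G and C. The detected gene of the pair thus had the window with fewer CpGs.

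NMDA receptor transcripts were scarce, and the subunit that every NMDA receptor contains was among the low ones. Grin2d stood at 1.11, 1.07 and 1.81 CPM, Grin2a at 1.69, 1.76 and 0.889 CPM, and Grin1, the obligatory subunit, at 0.444, 0.724 and 0.306 CPM (16, 21 and 10 counts). Grin2d was highest in replicate 3, while Grin2a and Grin1 were lowest there. Grin2b, a subunit typical of developing forebrain, had 3 counts in all, and Grin2c and Grin3a had 0. The 3 counts of Grin3b all came from replicate 3, and its exons share 1059 bases with Tmem259 on the other strand, so these reads cannot be assigned to Grin3b with confidence.

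Per kb, Grin2d stood 3.98-fold above Grin1 (2.13 to 8.26 over the libraries), which was larger than the spread between replicates by the rule used here: all libraries on one side and a mean log2 ratio of more than 2 SD. An exact two-sided permutation test over signs gave p = 0.25, and 3 libraries cannot give a smaller one. The call did not hold without length correction (2.73-fold), with the longest transcript (2.15-fold) or without replicate 1 (4.20-fold). The next gene, Grwd1, lies 938 bases from Grin2d and stood at 58.4, 58.6 and 94.6 CPM. It was therefore highest in replicate 3, as Grin2d was, at a level far above it. The part of reads from Grwd1 in the Grin2d counts was not tested. On the other strand, Grin1 shares 1307 exon bases with Grin1os, and Grin2d shares 643 with Gm45441. The effect of these overlaps on the ratio was not tested.

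No delta or metabotropic glutamate receptor was detected. Grid1, a subunit of a synapse-organising receptor, had 1 count over the 3 libraries. Of the 8 metabotropic receptors, 5 (Grm2, Grm3, Grm5, Grm6 and Grm8) had 0 counts. Among these, Grm3 and Grm5 are known from astrocytes. Grm7, a presynaptic receptor, had 14, 6 and 8 counts, and Grm4 had 6 counts in all. Per kb the family summed to 0.0872, 0.0545 and 0.0519 CPM per kb, against 0.167, 0.161 and 0.272 CPM per kb for Grin2d alone. No library of the family reached the lowest library of Grin2d.

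GABA-A receptor transcripts were low. The common receptor of the brain combines alpha and beta subunits with a gamma subunit. The gamma genes Gabrg1 and Gabrg3 had 0 counts, as did Gabrd, Gabrp, Gabrq and Gabra6. The beta gene Gabrb2 had 11, 19 and 4 counts. Only Gabre, the epsilon subunit, was detected, at 2.17, 1.83 and 2.60 CPM (SD 0.389, n = 3).

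The other GABA-A subunits stayed under the detection limit. Gabra3 stood at 0.916, 0.931 and 0.582 CPM, Gabra4 at 0.222, 0.345 and 0.858 CPM and Gabra2 at 0.444, 0.483 and 0.306 CPM. Gabra4 was highest in replicate 3 and Gabrb2 lowest there. Gabra5 had 1 count in all and Gabrb1 had 6. The rho genes, whose products can form channels of their own, had 9 counts (Gabrr2), 1 (Gabrr1) and 1 (Gabrr3). Gabra4 and Gabrb1 share 46 bases of exon on opposite strands. The strand setting is not stated, so how reads there were assigned is not known.

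Per kb, Gabre made up 52.4%, 41.3% and 54.3% of the GABA-A sum and Gabra3 26.8%, 25.4% and 14.6%. GABA-A genes lie in clusters in the genome. Gabre, Gabra3 and Gabrq lie together on chromosome X between 72255999 and 72842602, and this cluster held 295 of the 447 GABA-A counts. The cluster of Gabrg1, Gabra2, Gabra4 and Gabrb1 on chromosome 5 held 92. Within the X cluster Gabre was detected while Gabrq had 0 counts.

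**Figure D2:**
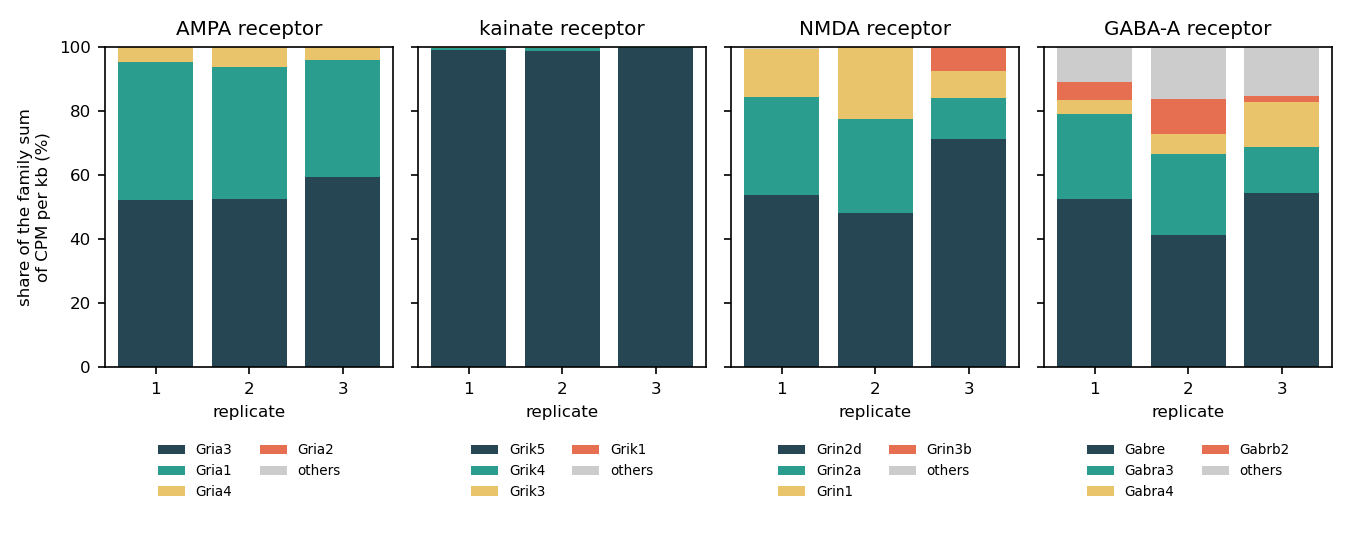
Share of each subunit in the summed CPM per kb of its receptor family, in percent, as stacked bars for replicates 1, 2 and 3, with the 4 highest subunits of a family in colour and the rest in grey. Grik5 fills 98.8% to 99.5% of the kainate bars and Gria3 52.3% to 59.5% of the AMPA bars, while the NMDA and GABA-A bars, built from few counts, differ more between libraries.

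The GABA-B receptor was represented by 1 of its 2 subunits. Gabbr1 binds GABA, and Gabbr2 carries it to the cell surface and couples to the G protein. Gabbr1 stood at 25.4, 26.1 and 23.7 CPM (25.0 ± 1.25 SD, n = 3), on chromosome 17 at 37045966 to 37075067. It did not pass the test of differences between libraries (chi-square test, Benjamini-Hochberg adjusted p = 0.241), which made it the steadiest of the 5 leading genes. Gabbr2, on chromosome 4 at 46662305 to 46991873, had 0 counts in all libraries. Gabbr1 was at least 701-fold higher per kb than Gabbr2 against 3 counts over the libraries. Without replicate 1 the limit was 439-fold.

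The promoter windows of the GABA-B pair are shown in the same way, at chr17:37045716-37046015 on the plus strand for Gabbr1 and at chr4:46991665-46991964 on the minus strand for Gabbr2, with CpGs in capitals.
Gabbr1: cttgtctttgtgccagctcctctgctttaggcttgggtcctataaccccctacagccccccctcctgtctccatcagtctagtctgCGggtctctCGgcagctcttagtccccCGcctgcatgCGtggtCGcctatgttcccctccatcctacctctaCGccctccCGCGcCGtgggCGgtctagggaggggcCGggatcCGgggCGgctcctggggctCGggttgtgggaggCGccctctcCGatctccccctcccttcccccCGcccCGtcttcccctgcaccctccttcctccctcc
Gabbr2: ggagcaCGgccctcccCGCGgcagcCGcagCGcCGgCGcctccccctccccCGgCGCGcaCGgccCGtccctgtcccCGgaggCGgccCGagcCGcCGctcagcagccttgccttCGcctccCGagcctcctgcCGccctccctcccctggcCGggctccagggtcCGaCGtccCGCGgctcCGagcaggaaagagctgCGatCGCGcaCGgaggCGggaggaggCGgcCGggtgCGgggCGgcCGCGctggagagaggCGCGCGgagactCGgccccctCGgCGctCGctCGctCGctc
The Gabbr1 window held 18 CpGs and the Gabbr2 window 46, the second highest number among the 41 windows found for the 50 genes.

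Of the GABA enzymes, Gad2 and Abat were detected and Gad1 was not. Gad1 and Gad2 encode the glutamate decarboxylases that make GABA, and Abat encodes the mitochondrial transaminase that breaks it down. Gad2 stood at 19.0, 20.8 and 9.84 CPM (16.5 ± 5.87 SD, n = 3), on chromosome 2 at 22622205 to 22693874. Abat stood at 3.36, 4.59 and 1.62 CPM (3.19 ± 1.49 SD, n = 3). Gad1 had 2, 0 and 1 counts. For both Gad2 and Abat, replicate 3 was the lowest library and replicate 2 the highest.

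Over the pooled libraries Gad2 was 697-fold higher per kb than Gad1 (exact 95% interval 238 to 3382, counting error only). Because it rests on 3 counts of Gad1, this ratio moved with the libraries used, to 1199.9-fold without replicate 1 and 436-fold without replicate 2. It also depended on the length used and was 336-fold with the longest transcript. Gad2 stood 7.05-fold above Abat per kb (5.95 to 7.92 over the libraries), larger than the spread between replicates, with an exact two-sided permutation p of 0.25. With the longest transcript the ratio was 4.32-fold, still larger than the spread.

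The windows of the decarboxylase pair lie at chr2:22622077-22622376 on the plus strand for Gad2 and at chr2:70561879-70562178 on the plus strand for Gad1, again with CpGs in capitals.
Gad2: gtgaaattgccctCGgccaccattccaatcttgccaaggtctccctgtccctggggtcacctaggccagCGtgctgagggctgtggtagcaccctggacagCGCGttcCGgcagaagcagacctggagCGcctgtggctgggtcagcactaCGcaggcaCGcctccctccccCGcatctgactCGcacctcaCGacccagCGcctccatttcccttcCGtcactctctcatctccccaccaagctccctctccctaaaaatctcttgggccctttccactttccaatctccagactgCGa
Gad1: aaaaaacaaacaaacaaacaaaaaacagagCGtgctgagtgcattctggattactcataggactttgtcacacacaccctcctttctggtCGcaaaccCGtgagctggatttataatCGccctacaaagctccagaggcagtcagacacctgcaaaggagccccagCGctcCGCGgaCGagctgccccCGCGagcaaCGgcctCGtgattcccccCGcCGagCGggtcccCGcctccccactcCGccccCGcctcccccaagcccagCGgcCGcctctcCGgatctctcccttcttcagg
The Gad2 window held 14 CpGs and the Gad1 window 21, so in each of the 3 pairs shown the detected gene had the fewer CpGs. Counted by windows, that order was not seen over the group. RefSeq windows were found for 34 of the 50 genes, 41 windows in all, and not for the detected genes Gria1, Gria3 and Abat. The median was 14 CpGs in the 5 windows of detected genes, 11.5 in the 36 others and 7 in all 32851 windows. The 36 windows came from 29 genes, so some genes counted more than once, as Grm8 did with windows of 33, 10 and 2 CpGs. Medians over genes were not taken, so the order over genes was not tested.

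Motifs were searched by exact letters on both strands of the same windows. The TATA box TATAAA was in 0 of the 5 windows of detected genes and 5 of the 36 others, against 13.6% of all windows. The GC box GGGCGG was in 3 of 5 and 17 of 36, against 35.7% of all. RE1, the element of the neuronal gene repressor REST, was searched by its left part, TTCAGCACC, found only in the window of Grm2 among the 41 and in 0.371% of all. Its right part, GGACAGC, was added after the sequences had been read. It was in the windows of Gad2, Gria2 and Grm2, 3 of 41, against 6.56% of all. A match describes letters and not a bound site.

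Differences between the 3 libraries were tested for the 15 genes of the group with a mean of at least 10 counts, by a chi-square test against counting noise adjusted over all 12737 genes tested. Of the 15, 10 (66.7%) passed, against 65.7% of all genes, so the group varied about as often as genes in general. In 8 of the 15 (53.3%) the gene passed and was lowest in replicate 3, against 31.5% of all genes, and in 2 (13.3%) it passed and was highest there, against 33.1%. The 8 were Grik5, Gria3, Gria1, Gria4, Grin2a, Gad2, Abat and Gabrb2, and the 2 were Grin2d and Gabra4. Without replicate 3, Gabra4 fell under the minimum count and was not retested, and Grm7 came in. Of the 15 genes then tested, 0 passed the same chi-square test, with 4 at an unadjusted p under 0.05.

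Abat and Gad2 had the largest such differences among the 8 detected genes. Gad2 was 2.01-fold higher in the mean of replicates 1 and 2 than in replicate 3 after TMM scaling (Benjamini-Hochberg adjusted chi-square p = 2.27e-28). Abat was 2.43-fold higher in the same comparison (adjusted p = 1.5e-09). Gria1 was 1.75-fold higher (adjusted p = 1.42e-10), and Grik5 and Gria3 were 1.35-fold and 1.34-fold higher (adjusted p = 1.68e-10 and 2.13e-07). Of the genes with fewer counts, Gria4 was 1.99-fold, Grin2a 1.93-fold and Gabrb2 3.89-fold higher (adjusted p = 0.0289, 0.0101 and 0.0033). In the other direction, Grin2d was 1.67-fold higher in replicate 3 (adjusted p = 0.0222) and Gabra4 3.05-fold higher there (adjusted p = 0.000606), the latter from 8, 10 and 28 counts. Gabbr1, Gabre, Gabra3, Gabra2 and Grin1 did not pass (adjusted p = 0.241, 0.148, 0.274, 0.582 and 0.0857). Grin1 passed without replicate 1 (adjusted p = 0.0356) and Gria4 did not pass without replicate 2 (adjusted p = 0.0520). Gabrb2 fell under the minimum count without replicate 2 and was not retested, and 8 genes then passed. When the common dispersion of edgeR over the 3 libraries, 0.0294, was added to the counting noise, 0 of 15 passed, with 4 at an unadjusted p under 0.05, and 1.99% of all genes passed. That dispersion was estimated from the same 3 libraries as 1 group, so it holds the distance of replicate 3 that is under test. This setting is thus no independent check of the calls. Estimated from replicates 1 and 2 alone, the dispersion was 0.000422.

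**Figure D3:**
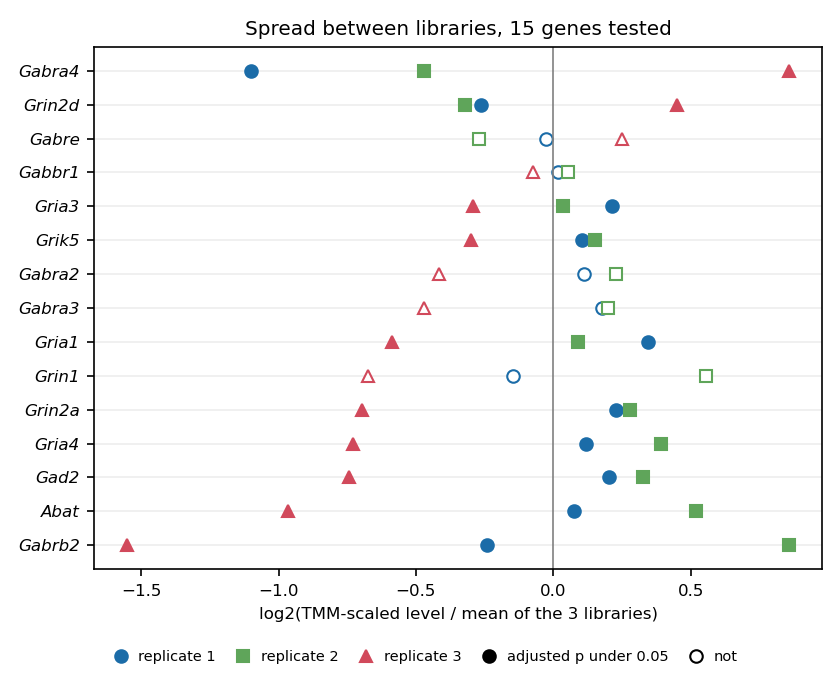
Level of the 15 tested genes in each library relative to the mean of the 3, as log2 of the TMM-scaled level over that mean. Symbols mark the replicates, filled where the chi-square adjusted p was under 0.05; replicate 3 lies left of the others for the 8 filled genes Gria3, Grik5, Gria1, Grin2a, Gria4, Gad2, Abat and Gabrb2, and right of them for Grin2d and Gabra4.

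Neuron markers were examined because these receptors are best known from neurons. Of 14 such markers, 3 (21.4%) were detected, against 46.6% of all genes. Of the 7 tested, 6 differed between libraries, 5 of the 7 differed and were lowest in replicate 3, and 1 differed and was highest there. Over all genes tested these shares were 65.7%, 31.5% and 33.1%. The list summed to 40.6, 39.3 and 27.9 CPM, lowest in replicate 3 as were Gad2 and Gria1. The defining markers Rbfox3, Dcx and the vesicular GABA transporter Slc32a1 had 0 counts in all libraries, and Elavl3 had 1. Slc32a1 and Slc17a7 are also in the transport lists below. The list's sum came mainly from the tubulin Tubb3 (21.2, 20.6 and 17.2 CPM), Syn1 (9.91, 10.1 and 5.42 CPM) and Map2 (4.97, 4.90 and 2.67 CPM). Astrocyte markers were detected in 5 of 10 cases and summed to 576, 574 and 445 CPM, with Gfap, Aqp4 and Gjb6 at 0. Oligodendrocyte progenitor markers were detected in 4 of 8 cases and summed to 396, 425 and 432 CPM, with Olig1 and Olig2 at 0. The sum of microglia and macrophage markers (2 of 8, or 25.0%, detected, 81.4, 74.8 and 45.3 CPM, Aif1 at 0) was also lowest in replicate 3. So was that of endothelium, pericytes and fibroblasts (6 of 10 detected, 4059, 3949 and 2281 CPM, Cldn5 at 0). The microglia sum came mainly from Tmem119 (75.6, 69.7 and 41.2 CPM). The last sum came mainly from the collagens Col1a1 and Col1a2, with means of 1717 and 1232 CPM, but it also held the endothelial cadherin Cdh5 (380, 371 and 303 CPM) and the pericyte receptor Pdgfrb (128, 128 and 105 CPM). The part of these lists in the differences between libraries was not tested.

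Genes that work together with the receptors were examined in 6 lists. Beyond the 4 highest of a list and the gene pairs, the genes named from them were chosen after their values were seen. Of 27 genes for proteins that anchor or accompany glutamate receptors, 12 (44.4%) were detected against 46.6% of all genes, with a median of 0.716 CPM against 0.541 CPM over all genes. Of the 15 tested, 11 differed between libraries, 8 of the 15 differed and were lowest in replicate 3, and 2 of the 15 differed and were highest there. Over all genes tested these shares were 65.7%, 31.5% and 33.1%. The scaffold genes Dlg1 (247 ± 5.70 CPM, SD, n = 3), Dlg3 (115 ± 3.31) and Dlg4 (62.2 ± 7.11) were, with Neto2, the 4 highest by CPM. Neto2, an auxiliary subunit of kainate receptors, stood at 201, 211 and 126 CPM and its relative Neto1 had 3 counts in all. The AMPA auxiliary gene Cacng7 stood at 14.1, 13.6 and 7.51 CPM, while Cacng2, Cacng3, Cacng4 and Cacng5 had 0 counts. Among the editing enzymes, Adarb1, whose product edits the Gria2 transcript, stood at 20.8, 17.9 and 9.13 CPM, and Adar at 45.9, 46.3 and 40.0 CPM. Adarb1 was thus present without Gria2 counts.

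Of 14 genes for GABA receptor partners, 6 (42.9%) were detected against 46.6% of all genes, with a median of 0.865 CPM. Of the 9 tested, 7 differed between libraries (65.7% of all genes tested did). Of the same 9, 6 differed and were lowest in replicate 3, against 31.5% of all genes tested. In the other direction, 1 of the 9 differed and was highest there, against 33.1%. The list was led by the ubiquitin-like Gabarap (171 ± 26.7 CPM, SD, n = 3) and its relatives Gabarapl2 (82.1 ± 3.28) and Gabarapl1 (78.8 ± 12.2), which also act in autophagy, and by Nlgn2 (65.7 ± 14.9), an adhesion protein of inhibitory synapses. The scaffold gene Gphn stood at 22.6, 24.4 and 30.0 CPM. The potassium channel genes Kcnj3, Kcnj6 and Kcnj9, through which GABA-B receptors act in neurons, had 1, 0 and 1 counts.

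Enzymes of glutamate metabolism and the cystine exchanger were detected, while most of the glutamate transporters were not. Of 16 genes for glutamate transport and metabolism, 9 (56.2%) were detected against 46.6% of all genes, with a median of 25.6 CPM against 0.541 CPM over all genes, undetected ones included. Of the 11 tested, 8 differed between libraries, 3 of the 11 differed and were lowest in replicate 3, and 5 of the 11 differed and were highest there. Over all genes tested these shares were 65.7%, 31.5% and 33.1%. The aminotransferase Got2 (357 ± 7.62 CPM, SD, n = 3), the dehydrogenase Glud1 (291 ± 12.2) and Slc3a2 (176 ± 24.3) were among the 4 highest by CPM. Slc7a11, which with Slc3a2 forms the exchanger that exports glutamate for cystine, stood at 46.5, 45.6 and 74.8 CPM. The uptake transporters of astrocytes were below 1 CPM in every library: Slc1a2 stood at 0.805, 0.828 and 0.766 CPM and Slc1a3 at 0.527, 0.586 and 0.552 CPM.

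Per kb, Slc7a11 stood 58.2-fold above Slc1a3 (46.3 to 80.9 over the libraries), larger than the spread between replicates, with an exact two-sided permutation p of 0.25. The ratio was 95.0-fold without length correction. Slc1a3 over Slc1a2 was 1.08 per kb (1.02 to 1.12), a difference within the spread. It exceeded the spread without replicate 1 (1.11), with a pseudocount of 5 counts (1.14) and with the longest transcript (1.83), and turned direction without length correction (0.700). Slc17a8, a vesicular glutamate transporter, stood at 23.9, 26.1 and 94.8 CPM, 3.82-fold higher in replicate 3 than in the mean of the others after TMM scaling. Its relatives Slc17a6 and Slc17a7, the usual transporters of glutamatergic neurons, had 8 and 5 counts in all.

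Enzymes of GABA metabolism were detected, and no gene for a GABA transporter was. Of 8 genes, 3 (37.5%) were detected against 46.6% of all genes, with a median of 0.0150 CPM, and 2 of the 3 tested differed between libraries, against 65.7% of all genes. The detected genes were Aldh9a1 (66.6 ± 6.77 CPM, SD, n = 3), Aldh5a1 (39.9 ± 6.38), the dehydrogenase that completes GABA breakdown after Abat, and Maob (2.06 ± 0.460). The plasma membrane GABA transporters Slc6a11, Slc6a12 and Slc6a13 had 2, 1 and 0 counts. Of the 5 chloride cotransporters, which set the chloride gradient that GABA-A receptors use, 4 were detected, with a median of 51.2 CPM. All 4 tested differed between libraries, where 65.7% of all genes did. Of these 4, 2 differed and were lowest in replicate 3 and 2 differed and were highest there (31.5% and 33.1% of all genes tested). Slc12a4 stood at 137 ± 5.82 CPM and the chloride importer Slc12a2 at 56.9 ± 10.6 (SD, n = 3), while the neuronal chloride exporter Slc12a5 had 8, 8 and 12 counts. Slc12a2 stood 129-fold above Slc12a5 per kb (121 to 143 over the libraries), larger than the spread, with an exact two-sided permutation p of 0.25.

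**Figure D4:**
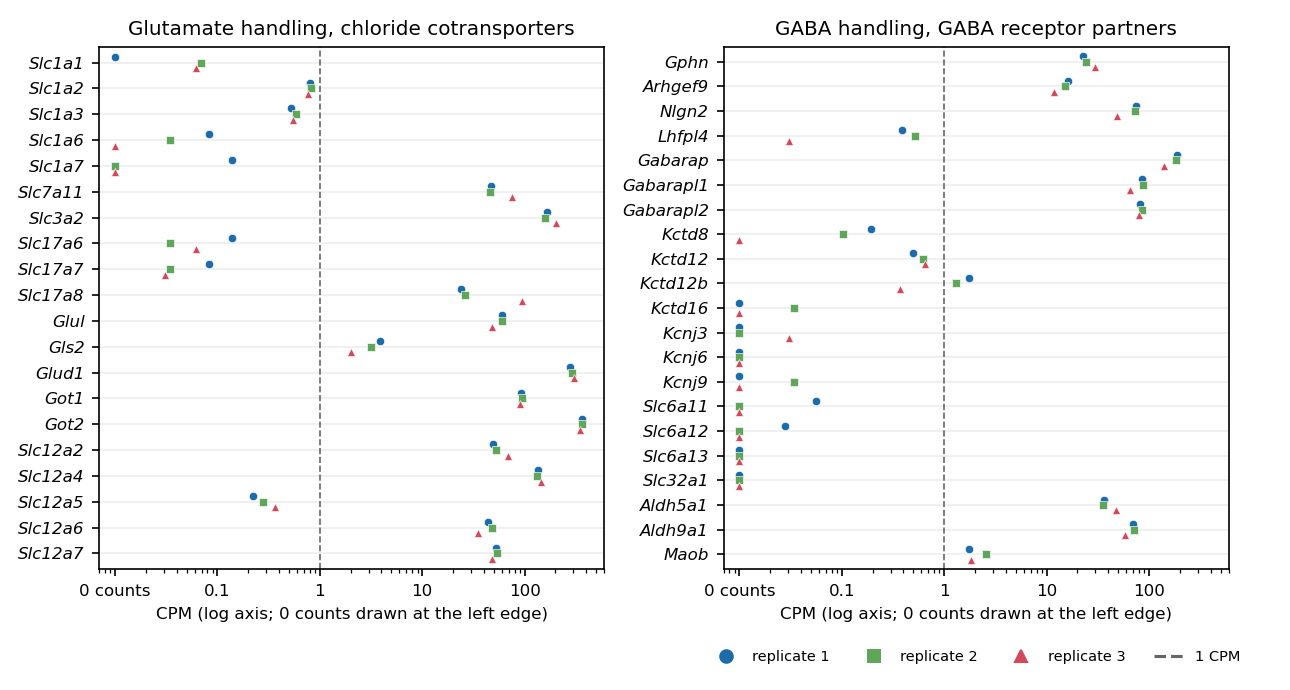
Level of genes for glutamate handling and chloride cotransport (left) and for GABA handling and GABA receptor partners (right) in each library, in CPM on a log axis, with 0 counts at the left edge and a dashed line at 1 CPM. Metabolic enzymes lie right of the line, as do the GABA receptor partners Gabarap, Gabarapl1, Gabarapl2, Nlgn2 and Gphn. The partners Kcnj3, Kcnj6 and Kcnj9 lie left of it in all libraries, as do Slc1a2, Slc1a3, Slc12a5, Slc6a11, Slc6a12 and Slc6a13.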

How the data were processed

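Values are raw counts per gene symbol, 1 deposited file per library. Per the submitters' processing notes, Bowtie2 2.2.4, HTSeq and mm10 were used, and their options and annotation are not given in the sources used here. Per the summary lines of the deposited files, multiply placed reads were left unassigned, which can lower near-identical genes, and without a stated strand setting antisense reads cannot be told apart.

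CPM used counts assigned to genes and left out the 5 summary lines: 5.19%, 5.27% and 6.54% of reads lay outside genes, 1.05%, 1.04% and 1.01% in more than 1 gene and 8.93%, 8.86% and 9.58% at more than 1 position. Length, the union of exons, and coordinates came from GENCODE M21 (GRCm38, as mm10), and all 50 genes matched. Promoters came from RefSeq (GRCm38.p6).

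Libraries were compared by chi-square after TMM scaling (edgeR 4.0.16, R 4.3.3), in genes whose mean count reached 10 (Benjamini-Hochberg threshold 0.05). The 9 gene pairs used log2 ratios with a pseudocount of 0.5 counts. Where a gene had 3 counts or fewer, pooled counts were used. Alternatives used DESeq2 1.42.0 size factors, other thresholds, lengths and left-out libraries. The chi-square test was tried on simulated counts with counting noise only, without and with a change in 1 library. Such counts lack the further spread of these libraries, and the other steps were not simulated. Named are the 50 genes, the 4 highest of each partner list and the pairs, and some of these are not reported here. Genes and lists were chosen with earlier results of these data known.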

Additional observations from a re-analysis of the deposited data

How the results depend on the processing

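No paired analysis was possible because there is 1 group. The count of 8 detected genes was 5 at 2 CPM and 13 at 10 counts in all libraries, and lay between 8 and 11 under the other 8 settings. The count of 10 varying genes was 5 at a mean count of 50, where 7 of the 50 genes are tested. It was 0 with the edgeR dispersion, which was estimated from these same libraries. With 1 library left out it was 0 to 11, 0 being the value without replicate 3, where Gabra4 was not retested. Gabrb2 was not retested without replicate 2. The causes were not tested. Without length correction and with the longest transcript, the lower limits were 814 and 892 for Gabbr1 over Gabbr2, 537 and 1069.8 for Gria3 over Gria2, and 900.3 and 2089.99 for Grik5 over Grik2. With 1 library left out, and so fewer counts, they ranged from 439 to 484, 486 to 618 and 1389 to 1683. In the same 2 length settings Grin2d over Grin1 was 2.73 and 2.15, both within the spread, and Slc1a3 over Slc1a2 was 0.700 and 1.83, so these ratios depend on the length used. With 1 library left out they ranged from 2.76 to 5.43 and from 1.06 to 1.11. Slc1a3 over Slc1a2 was 1.14 with a pseudocount of 5, then larger than the spread. The mean share of Gria3 was 66.2% and 67.6% in the length settings, and that of Grin2d 40.5% without length correction. Summing the counts of replicates 1 and 2 into 1 library was added after the data were seen. It moved neither the count of detected genes nor that of varying genes by over 1.5 times, with 17 genes then tested. It did not move the call of the 5 pairs it was run on. The 4 pairs taken from counts pooled over all libraries were not rerun this way. At these depths a gene with 0 counts could have stood at up to 0.103 CPM.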

Other observations

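Gad2 lies 3.95 kb from Myo3a, which had 0, 0.0345 and 0.0306 CPM, and 80.2 kb from Apbb1ip, at 119, 117 and 120 CPM in replicates 1, 2 and 3. Apbb1ip did not share the lower level of Gad2 in replicate 3. Gabbr1 lies between Mog and Olfr90, which had 0 to 0.0278 CPM and 0 counts. Gabre lies between Magea4 and Magea10, each with 0 counts. Grik5 lies 220 bases from Zfp574 (20.6, 19.8 and 22.3 CPM), whose level in replicate 3 was its highest where that of Grik5 was its lowest.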
